A study of Mus musculus with 2 samples.

Results

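The extracellular matrix holds many secreted proteins besides the collagens, and 10 of their genes are described here in cultured cells of the mouse dorsal root ganglion (DRG): Dcn, Lum, Bgn, Mgp, Fn1, Spp1, Postn, Tnc, Sparc and Fbln1. They were taken by symbol from the 31053 genes of the count tables, and all 10 symbols were found. The set was chosen by measured levels, to hold genes seen mainly in fibroblasts and genes shared with glia, so the levels of the 10 genes in the cell classes are a description, with no test. The Cell_culture dataset held 2 libraries, A and B, from DRG cells of 2-week-old Swiss mice, dissociated with enzymes and kept for 3 days in culture before single cell RNA sequencing by the 10x Genomics 3' v3 method. The study's methods say that male and female mice were used. Both libraries carried the same condition, and no freshly isolated cells were analysed here. The sources do not state whether A and B were made from different animals or cultures, so each SD covers only the spread between these libraries, and the p-values of edgeR below lie close to counting error.

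The tables held 5175 barcodes and 40355401 UMIs (counted molecules) in library A, and 5773 barcodes and 38945848 UMIs in library B, and 8 barcodes occurred in both. With at least 200 genes and at most 10% mitochondrial UMIs required, 10730 of 10948 barcodes were kept. Clusters were formed without the 10 genes and without the other non-collagen matrix, receptor and processing genes listed below, but collagen genes were not left out. The clusters gave 9447 glia-like, 389 fibroblast-like, 812 neuron-like and 82 macrophage-like cells, here called glia, fibroblasts, neurons and macrophages. These names were rebuilt from marker lists and can differ from the study's own. The fibroblast list included the collagen genes Col1a1, Col1a2, Col3a1 and Col6a3. The 8 fibroblast markers summed to 5628 and 5629 CPM (the UMIs of a gene per 1000000 UMIs of that class in that library) in the fibroblasts of A and B. They also summed to 2085 and 2097 CPM in glia, where Col1a1, Col1a2 and Col3a1 reached 24.1%, 71.6% and 33.1% of their fibroblast level, whereas Pdgfra, a fibroblast receptor, stood at 140 and 137 CPM in fibroblasts and at 0.118 and 0.190 CPM in glia. The fibroblasts were few (172 in A and 217 in B), and so were the macrophages (37 and 45). Doublets were not removed, and the median UMI count differed between classes, from 4916 and 4539 in glia to 12190 and 11187 in fibroblasts and 29527 and 27429 in neurons.

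Non-collagen matrix proteins organise collagen fibrils, join cells to the matrix through integrins, or modulate adhesion without bearing load themselves (the matricellular proteins). In peripheral ganglia and nerves the matrix is laid down by fibroblasts and by the glial cells, which also form a basal lamina. Decorin (Dcn), lumican (Lum) and biglycan (Bgn) are small leucine-rich proteoglycans that bind collagen fibrils, and matrix Gla protein (Mgp) inhibits calcification. Fibronectin (Fn1) is an adhesive glycoprotein of fibrils, and fibulin 1 (Fbln1) binds fibronectin, basement membranes and elastic fibres. Osteopontin (Spp1), periostin (Postn), tenascin C (Tnc) and SPARC (Sparc, osteonectin) are matricellular, and Spp1 is also a cytokine of macrophages.

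The 10 genes lie on 9 chromosomes of GRCm38 (mm10), and Dcn (chr10:97479609-97518143) and Lum (chr10:97565128-97572703) are neighbours on the plus strand, 47.0 kb apart. RefSeq promoter sequences of GRCm38.p6 were matched for 6 of the 10 genes (Spp1, Postn, Tnc, Bgn, Fbln1 and Sparc). The 250 bases before a transcript start are shown for 3 genes that stand for the main patterns below: Spp1, high in fibroblasts and macrophages (chr5:104434861-104435110, plus strand), Postn, high in glia (chr3:54360857-54361106, plus strand), and Bgn, which differed within both fibroblasts and glia (chrX:73483351-73483600, plus strand). Capitals mark matches, on either strand, to any of 4 motifs. These are TATAAA (the TATA box), the shorter motif CCAAT, the motif GGGCGG of GC boxes and the AP-1 motif TGANTCA, where N is any base. The matches of GGGCGG at the end of the Bgn sequence overlap.
Spp1: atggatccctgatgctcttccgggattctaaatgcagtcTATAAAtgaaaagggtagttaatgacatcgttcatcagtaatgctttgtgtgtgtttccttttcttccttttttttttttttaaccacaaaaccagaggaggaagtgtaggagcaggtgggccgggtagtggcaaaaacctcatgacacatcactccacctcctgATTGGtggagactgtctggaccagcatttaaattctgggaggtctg
Postn: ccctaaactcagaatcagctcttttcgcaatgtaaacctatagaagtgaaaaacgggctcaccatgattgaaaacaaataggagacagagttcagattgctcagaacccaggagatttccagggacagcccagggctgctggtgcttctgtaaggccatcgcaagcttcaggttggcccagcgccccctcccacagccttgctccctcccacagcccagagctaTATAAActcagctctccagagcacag
Bgn: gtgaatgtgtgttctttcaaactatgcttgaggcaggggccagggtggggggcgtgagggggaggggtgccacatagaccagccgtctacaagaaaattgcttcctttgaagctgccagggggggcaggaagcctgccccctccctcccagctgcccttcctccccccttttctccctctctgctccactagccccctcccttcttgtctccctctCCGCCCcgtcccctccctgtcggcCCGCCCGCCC
The Postn sequence held TATAAA 26 to 21 bases before the start, a match that 12.4% of all 32851 promoters of this length held. The Spp1 sequence held TATAAA further off (211 to 206 bases before the start) and CCAAT on the opposite strand 46 to 42 bases before it, which 33.8% of all promoters held. In Bgn, 3 matches to GGGCGG stood within 34 bases of the start, and 32.7% of all promoters held at least 1. No match to TGANTCA was found in these sequences, and 6.75% of all promoters held it. These matches are letters in a window and were not tied to the levels.

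Dcn and Lum were found almost wholly in fibroblasts. Dcn stood at 4623 CPM in the fibroblasts of A and 5291 in those of B, against 4.13 and 3.00 CPM in glia, 23.7 and 38.0 in neurons and 7.13 and 91.9 in macrophages. Its fibroblast level was 1119 and 1761 times that of glia, and the macrophage value of B came from 1 cell with 40 of the 41 UMIs (2.31 CPM without it). After each cell was thinned to 2000 UMIs, so that classes of unequal depth can be compared, Dcn was seen in 89.5% (95% exact binomial interval 83.9 to 93.6) of fibroblasts in A and 92.1% (87.6 to 95.3) in B, and in 0.550% and 0.388% of glia. In droplet data free RNA gives such low shares too, and these intervals cover counting error only. Unthinned, the shares were 94.2% and 94.5% of fibroblasts and 1.09% and 1.21% of glia. Neurons lay above glia, with a Dcn UMI in 2.65% and 3.94% of thinned and 16.1% and 16.5% of unthinned cells. Without the top neuron of each library their level was 19.1 CPM in A and 31.5 CPM in B.

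Lum was likewise highest in fibroblasts and was seen in fewer of them. Its level was 845 CPM (A) and 1053 CPM (B) in fibroblasts and 3.31 and 3.00 in glia, a ratio of 256 and 350, with 0.430 and 0.657 CPM in neurons and 2.38 and 8.96 in macrophages. Among thinned cells Lum was seen in 50.9% and 57.0% of fibroblasts and in 0.687% and 0.572% of glia. In the thinned cells of neither library did a neuron hold a Lum UMI, which at that depth allows a share with a UMI of up to 0.723% in A and 0.845% in B. Unthinned, 1.15% and 1.60% of neurons held one.

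**Figure D1:**
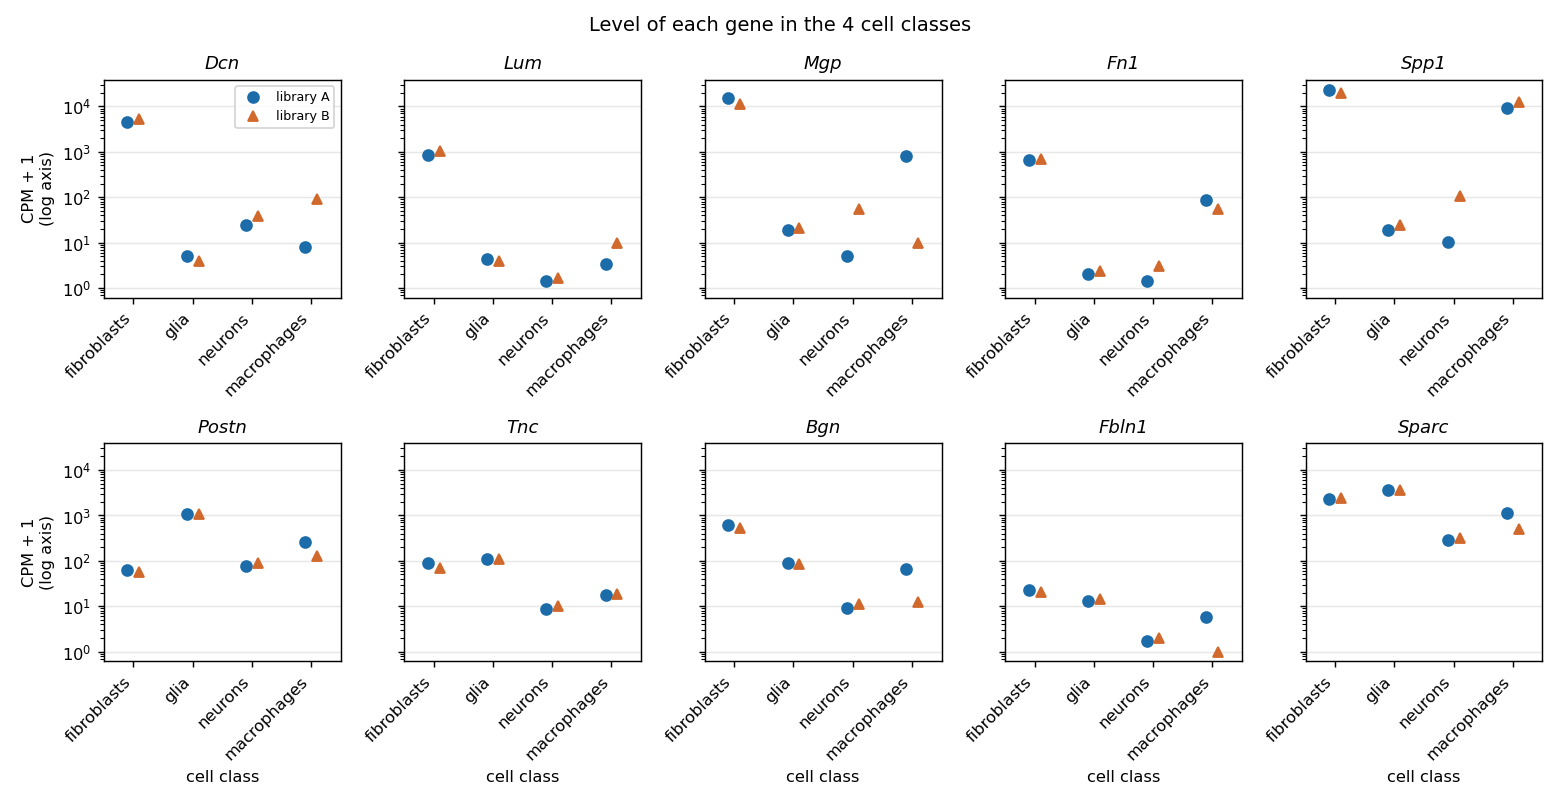
Level of each gene (CPM plus 1, log axis) in fibroblasts, glia, neurons and macrophages; circles are library A and triangles library B. Dcn, Lum, Mgp, Fn1 and Spp1 stood far above glia in fibroblasts, Postn stood at 1100 and 1071 CPM in glia, and the libraries parted most in neurons and macrophages, for example for Mgp in macrophages (789 and 8.96).

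Mgp and Spp1 gave the fibroblasts their highest counts. For Mgp, 15166 CPM in A and 11475 CPM in B compared with 17.9 and 20.2 CPM in glia, ratios of 847 and 567. Its macrophage levels, 789 and 8.96 CPM, parted because 330 of the 332 UMIs in A lay in 1 cell (5.0 CPM without it), and the neurons of B (53.5 CPM, against 3.96 in A) likewise held 439 of 488 UMIs in 1 cell. Mgp was detected in 86.0% and 86.9% of thinned fibroblasts and in 2.24% and 2.49% of glia. Fibroblasts thus lay apart from the other classes once those cells were set aside.

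Spp1 was shared by fibroblasts and macrophages. Its level was 23455 and 19416 CPM in fibroblasts, 9225 and 12694 CPM in macrophages, and 17.5 and 23.4 CPM in glia. In macrophages it came to 52.4% ± 18.4 (SD, n = 2) of the fibroblast level. Thinned to the same depth, 93% and 97.2% of fibroblasts and 83.8% and 95.6% of macrophages held an Spp1 UMI, with medians of 32 and 29 UMIs per fibroblast and 11 and 13 per macrophage. Glia held it in 2.72% and 3.45% of cells. The neuron levels were 9.04 CPM in A and 105 CPM in B, and 535 of the 955 UMIs of B lay in 1 neuron (46.2 CPM without it).

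Fn1 was also highest in fibroblasts, followed by macrophages. Fibroblasts stood at 648 and 693 CPM, macrophages at 85.6 and 53.8, neurons at 0.430 and 1.97 and glia at 0.984 and 1.37. The ratio of fibroblasts to glia was 658 and 506. A single macrophage in each library held 19 of 36 and 13 of 24 of the Fn1 UMIs of that class, and without it the level was 42.5 CPM in A and 25.01 CPM in B. In thinned cells, 64.3% and 64.5% of fibroblasts had an Fn1 UMI, against 13.5% and 6.67% of macrophages and 0.160% and 0.286% of glia.

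Bgn and Fbln1 were higher in fibroblasts than in glia but present in both. The Bgn level was 619 and 518 CPM in fibroblasts and 90.2 and 85.5 CPM in glia, 6.86 and 6.07 times higher in fibroblasts. It was detected in 49.1% and 46.7% of thinned fibroblasts, in 15.1% and 14.6% of glia, and in 1.69% and 3.1% of neurons. For Fbln1 the levels were 22.2 and 19.8 CPM in fibroblasts against 12.2 and 13.2 CPM in glia, 1.82 and 1.5 times higher. These fibroblast values rest on 47 and 48 UMIs, and the shares of thinned cells with an Fbln1 UMI (2.34% and 1.40% of fibroblasts, with upper bounds of 5.88% and 4.04%, against 2.68% and 2.49% of glia) gave no order between the classes.

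Postn, Sparc and Tnc had their highest levels in glia. Postn reached 1100 CPM in A and 1071 CPM in B in glia, against 63.3 and 55.2 in fibroblasts, so that fibroblasts were at 0.0575 and 0.0516 of the glial level. A Postn UMI was seen in 84.4% and 84.3% of thinned glia and in 7.02% and 7.48% of fibroblasts. Neurons stood at 74.0 and 90.05 CPM and macrophages at 254 and 125 CPM. These classes also carried glial markers, whose 8 genes summed to 563 and 566 CPM in neurons, 1129 and 674 CPM in macrophages, 132 and 207 CPM in fibroblasts and 4038 and 3977 CPM in glia. The part of these glial transcripts in the Postn counts of the other classes was not tested.

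Sparc was abundant in glia and fibroblasts alike. Glia stood at 3708 and 3674 CPM and fibroblasts at 2338 and 2385 CPM, a ratio of fibroblasts to glia of 0.631 and 0.649 with an SD between libraries of 24.2 CPM in glia and 33.3 CPM in fibroblasts. Nearly every glial cell (99.2% and 98.9% after thinning) and 89.5% and 94.4% of fibroblasts held a Sparc UMI, and the median was 7 UMIs per glial cell and 4 per fibroblast in both libraries. Macrophages (1120 and 509 CPM) and neurons (290 and 316 CPM) were lower.

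Tnc stood at 109 and 107 CPM in glia, 86.4 and 68.8 CPM in fibroblasts, 7.66 and 9.31 in neurons and 16.6 and 17.9 in macrophages. Fibroblasts were at 0.792 and 0.642 of the glial level, and the spread between the fibroblast values was 12.4 CPM (SD, n = 2). Of thinned cells, 18.1% of glia in both libraries had a Tnc UMI, against 12.3% and 7.01% of fibroblasts.

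Of the 10 genes, 6 were at least 4-fold higher in fibroblasts than in glia in both libraries (10 CPM added to each level), where 2.17% of the 8590 genes at 20 CPM or more in a class passed that limit (5.89% passed a 2-fold and 0.838% an 8-fold limit). The lowest ratio inside the limit was that of Bgn and the highest outside it that of Fbln1. With no floor on the level, 7 of the 10 were highest in fibroblasts in both libraries (12% of the 8590 genes), and 3 were highest in glia (31.7%). Fbln1 missed the floor of 20 CPM in B, so 9 of the 10 passed it. These counts follow from how the genes were chosen and are given only for scale.

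The class that held most of a gene's UMIs differed from the class with the highest level for Bgn and Fbln1. Glia held 64.2% and 68.7% of all UMIs and fibroblasts 5.35% and 6.34%. Between 95.2% and 97.5% of the UMIs of Dcn, Lum, Mgp and Fn1 lay in fibroblasts. For Spp1 these shares were 91.8% and 86.7% in fibroblasts and 7.17% and 10.4% in macrophages. Bgn was split, with 61.6% and 62.4% of its UMIs in glia and 35.2% and 34.9% in fibroblasts. Postn (96.2% and 96.5%), Sparc (91.5% and 91.6%), Tnc (90.9% and 91.6%) and Fbln1 (84.4% and 85.9%) lay mainly in glia, Fbln1 although its CPM was higher in fibroblasts.

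**Figure D2:**
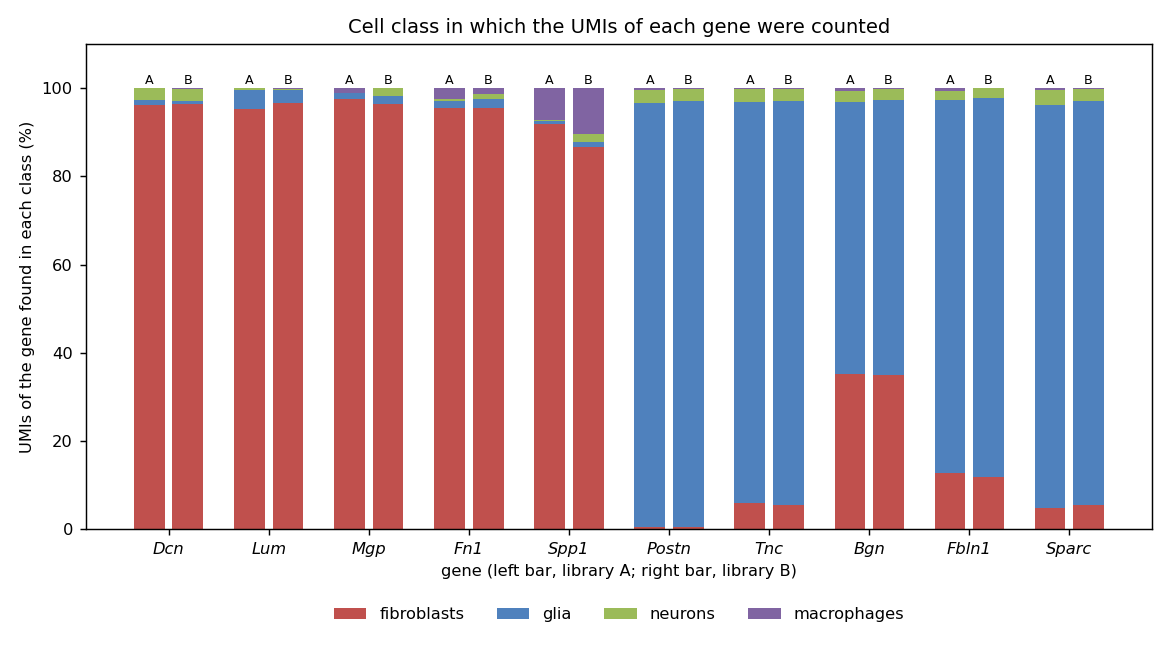
Percent of each gene's UMIs that were counted in fibroblasts, glia, neurons and macrophages, stacked to 100%, with the left bar for library A and the right bar for library B. Dcn, Lum, Mgp and Fn1 came from fibroblasts, Spp1 from fibroblasts with 7.17% and 10.4% from macrophages, Bgn from both glia and fibroblasts, and Postn, Tnc, Fbln1 and Sparc mainly from glia.

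Glia held traces of the fibroblast genes. Relative to the fibroblast level in the same library, glia held 0.0731% ± 0.0230 of Dcn, 0.0976% ± 0.0324 of Spp1, 0.147% ± 0.0412 of Mgp, 0.175% ± 0.0322 of Fn1 and 0.338% ± 0.0748 of Lum (mean and SD, n = 2). With a mitochondrial limit of 5% the glial levels were 11.4 CPM for Dcn and 2.14 CPM for Lum, so no order of these percentages is read. The part of free RNA in these traces was not tested. In A, 46 of the 105 Dcn UMIs of glia lay in 1 cell, and without the top cell of each library the glial level was 2.32 CPM in A and 2.47 CPM on average. No thinned glial cell of 4367 in A and 4897 in B held UMIs of Dcn, Lum and Mgp together, which at this depth allows shares of up to 0.0687% and 0.0613%, whereas 69 of 171 fibroblasts in A (40.4%) and 105 of 214 in B (49.1%) did. Each gene alone was so rare in glia that no such cell would be looked for even among unrelated genes, so this absence is not read further.

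Within the fibroblasts, the 10 genes were unevenly spread. The class was clustered again without the same listed genes, a step chosen after the class levels were seen. It gave 5 clusters of 186, 140, 23, 22 and 18 cells, called 0 to 4. Cluster 0 was led by Trf, Cdkn2a and Apod and cluster 1 by Mmp3, Cxcl14 and Ptgs2. The genes leading cluster 2 included Sostdc1 and the glial gene Fabp7 (glial markers at 1588 CPM, against 44.4 in cluster 0), and cluster 3 by genes of the cell cycle such as Hist1h1b and Top2a. Cluster 4 carried the smooth muscle genes Tagln and Rgs5 and summed to 2487 CPM of the 8 pericyte and smooth muscle markers, against 31.2 in cluster 0. The part of doublets in clusters 2 and 4 was not tested. A contrast of clusters of the same cells is a description, with no test.

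Lum and Dcn were highest in cluster 0, and Mgp, Bgn and Tnc were higher in cluster 1. Lum stood at 1526 CPM (A) and 1704 CPM (B) in cluster 0, at 380 and 414 in cluster 1 and at 56.6 and 52.7 in cluster 3. Dcn stood at 6287 and 6864 CPM in cluster 0 and at 3915 and 4175 CPM in cluster 1. Both libraries gave this order for both proteoglycans, and in the 18 cells of cluster 4 Lum had no UMI and Dcn had 14.

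The opposite order held for Bgn, at 166 and 245 CPM in cluster 0 and 1016 and 898 CPM in cluster 1. Mgp stood at 5933 and 7210 CPM in cluster 0 and at 26336 and 16827 CPM in cluster 1. Tnc stood at 11.3 and 14.6 CPM and at 132 and 123 CPM, and 57.4% and 62.9% of the fibroblast Tnc UMIs lay in cluster 1. That cluster held 37.6% and 35.2% of all UMIs of the class. Cluster 3, with the cell cycle genes, resembled cluster 1 in these genes, with Bgn at 923 and 798 CPM, Mgp at 15311 and 24400 CPM and Tnc at 205 and 278 CPM. Sparc was at 1638 and 1911 CPM in cluster 0 and 2876 and 2993 CPM in cluster 1.

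Fn1 and Spp1 varied less between the large clusters. Fn1 was at 649 and 744 CPM in cluster 0 and at 730 and 724 CPM in cluster 1, with overlapping values. Spp1 was at 19361 and 19215 CPM in cluster 0 and at 29873 and 23041 CPM in cluster 1. Fbln1, at 7.91 and 6.86 CPM in cluster 0, was higher in cluster 1 (30.1 and 31.6 CPM) and in cluster 3 (49.5 and 75.2 CPM), on at most 27 UMIs per library and cluster.

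Postn in the fibroblast class was tied to the cells with glial genes. Cluster 2 held 50% and 63.4% of the Postn UMIs of the class but only 5.82% and 9.79% of all its UMIs. Its Postn level was 543 and 358 CPM, against 15.8 and 18.0 CPM in cluster 0. Without clusters 2 and 4 (348 cells left), Postn in fibroblasts was at 33.6 and 22.8 CPM, a mean of 28.2 CPM in place of 59.2, and the 6 and 7 genes counted above remained 6 and 7.

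**Figure D3:**
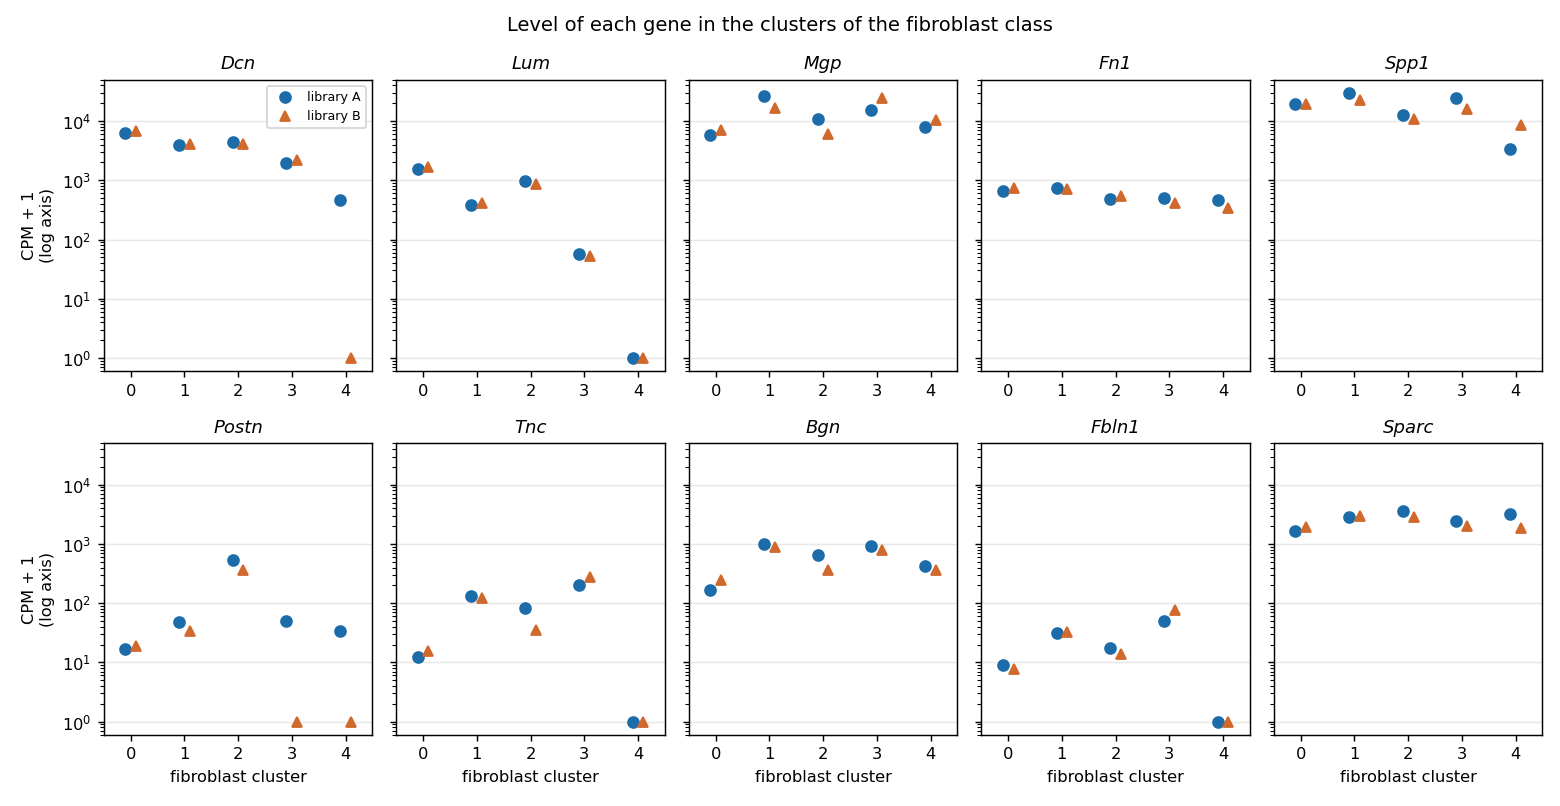
Level of each gene (CPM plus 1, log axis) in the 5 clusters of the fibroblast class, formed without the listed matrix, receptor and processing genes. Circles are library A and triangles library B, and clusters 2, 3 and 4 hold 23, 22 and 18 cells. Lum stood at 1526 and 1704 CPM in cluster 0 and at 380 and 414 in cluster 1, Bgn stood at 166 and 245 and at 1016 and 898, and Postn was highest in cluster 2 (543 and 358).

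Cell by cell, the levels of some pairs of genes went together among the thinned fibroblasts (171 in A and 214 in B), given as Spearman's rho with no test, since the cells of a library share its depth and preparation. Dcn and Lum went together (rho 0.569 in A and 0.547 in B). Mgp went with Bgn (0.483 and 0.421), Sparc (0.445 and 0.442) and Spp1 (0.361 and 0.442), and Bgn with Sparc (0.511 and 0.349). Lum and Bgn, both small leucine-rich proteoglycans, went in opposite directions (-0.37 and -0.22). Tnc had a low rho with Mgp (0.109 and 0.224) and with Bgn (0.102 and 0.156), in the same direction as the clusters. It was seen in only 12.3% and 7.01% of these cells, and so many cells without a UMI limit how high rho can go. The pairs did not all follow the clusters, since Dcn had a rho of 0.276 and 0.285 with Spp1. Mgp was the most uneven of the abundant genes, with a median of 14 and 10 UMIs per thinned cell and a 95th percentile of 117 and 85.4.

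Glia also differed among themselves. Clustering the 9447 glial cells without the same listed genes gave 5 clusters, 0 to 4, of 3631, 2402, 2188, 1042 and 184 cells. Cluster 0 was led by Ccnd2, Apoe and Ndrg2 and had the highest sum of 7 satellite glial genes, 11876 and 11492 CPM. Cluster 1 was led by histone genes. Cluster 2 was led by Tgfbi, Igfbp5 and Atf3, a stress and injury gene, and clusters 3 and 4 by genes of mitosis such as Ccnb1 and Cenpf. The satellite glial genes stood at 1943 and 1980 CPM in cluster 2 and at 1586 and 1403 CPM in cluster 4.

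Bgn differed sharply between the glial clusters, at 144 and 130 CPM in cluster 0, 83.0 and 77.1 in cluster 1 and 106 and 121 in cluster 3. It stood at 6.87 and 12.8 CPM in cluster 2 and 6.24 and 1.33 CPM in cluster 4, below every value of the other clusters. Tnc had another order, with 166 and 168 CPM in cluster 2 against 107 and 105.6 in cluster 0 and 60.5 and 55.3 in cluster 3. Sparc was highest in cluster 0 (mean 4689 CPM ± 49.5, SD, n = 2) and lowest in cluster 4 (2658 ± 31.1). Postn varied least, from a mean of 1255 CPM in cluster 0 to 903 CPM in cluster 4.

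**Figure D4:**
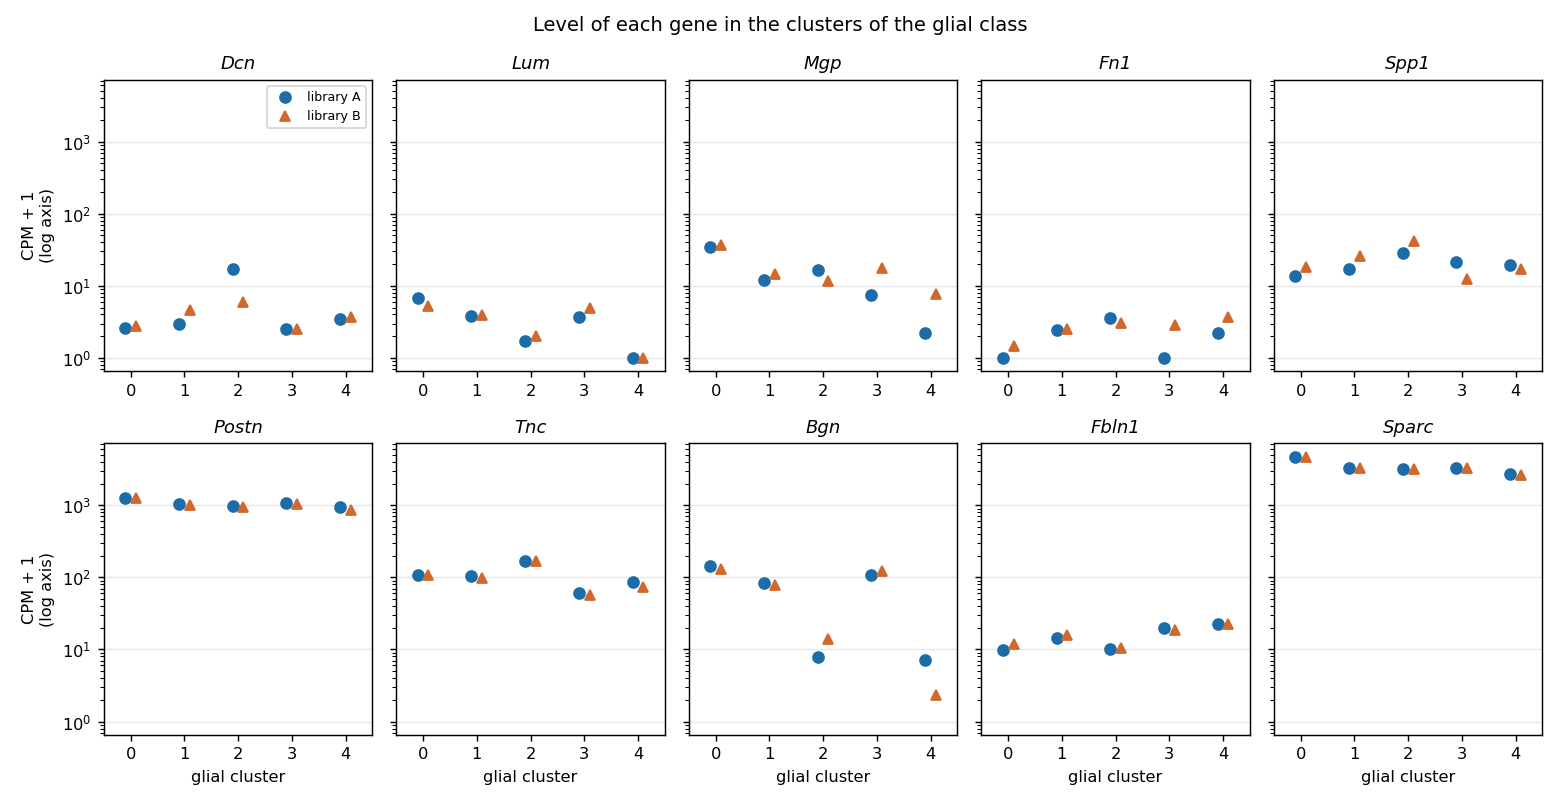
Level of each gene (CPM plus 1, log axis) in the 5 clusters of the glial class, formed without the listed matrix, receptor and processing genes. Circles are library A and triangles library B. Bgn was at 144 and 130 CPM in cluster 0 but at 6.87 and 12.8 in cluster 2 and 6.24 and 1.33 in cluster 4, Tnc was highest in cluster 2 (166 and 168), and Postn stayed between 1268 and 869.7 CPM throughout.

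To test whether the 10 genes follow the state of the glial cell, cells were split by genes outside the set. The first split used the summed UMIs of 7 satellite glial genes (Fabp7, Kcnj10, Apoe, Glul, Slc1a3, Gja1 and Hmgcs1) in cells thinned to 2000 UMIs. The upper group, at or above the 75th percentile of its library (1157 cells in A and 1306 in B), was compared with the lower group, at or below the 25th (1151 and 1225), on counts summed per library and group, by edgeR's quasi-likelihood test with the library as a block and Benjamini-Hochberg adjustment over 11833 genes. The sum is graded, and 479 cells in A and 591 in B lay within 1 UMI of the lower cut. The groups also differed in 25 genes of mitosis, which summed to 5762 and 5086 CPM in the lower and 3025 and 3352 CPM in the upper group, and a split among cells without UMIs of those genes is given below.

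All 10 genes passed, 5 higher in the upper group, where 22.4% of the genes tested were higher, and 5 lower, where 22.3% were lower (2648 and 2638 genes, against 904 and 879 in DESeq2). For Bgn, 11.1 CPM in A and 10.9 in B in the lower group became 165 and 155 CPM in the upper (log2 change 3.80 ± 0.09, SE of the edgeR fit). Its adjusted p was 2.33e-88 by DESeq2, an alternative test, since that of edgeR was too small to be written. The SEs given for both splits come from the fit, lie close to counting error and do not measure the spread between libraries. Mgp rose from 4.65 and 6.36 CPM to 43.6 and 48.7 CPM (3.02 ± 0.15, adjusted p = 1.12e-86 by edgeR). Sparc rose from 2799 and 2776 CPM to 4667 and 4545 CPM (0.67 ± 0.02, adjusted p = 2.49e-195), and Postn from 924 and 899 CPM to 1260.1 and 1205 CPM (0.39 ± 0.03, adjusted p = 7.71e-35). The values of the groups did not overlap for any of these genes. The share of all genes tested without overlap was not counted, so this is not read as particular to them. Without Apoe in the list the log2 changes were 1.30 for Bgn, 1.47 for Mgp, 0.22 for Sparc and 0.19 for Postn, all still called. With cells thinned to 1000 UMIs they were 2.87 for Bgn and 2.30 for Mgp.

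Tnc fell from 150 and 149 CPM to 89.1 and 89.4 CPM (-0.79 ± 0.06, adjusted p = 5.08e-34), and Spp1 from 23.1 and 35.1 CPM to 13.1 and 13.7 CPM (-1.17 ± 0.14, adjusted p = 2.85e-16). Lum rose from 0.563 and 0.296 CPM to 8.07 and 6.53 CPM (3.97 ± 0.44, adjusted p = 4.54e-18), on 6 UMIs in the lower and 84 in the upper group, and by 1.96 without Apoe in the list and 3.29 at 1000 UMIs. The falls of Dcn (-1.95 ± 0.33, adjusted p = 3.10e-08, on 93 and 20 UMIs), Fn1 (-1.65 ± 0.63, adjusted p = 0.0214, on 26 and 7 UMIs) and Fbln1 (-0.43 ± 0.18, adjusted p = 0.0359) were not called by DESeq2, with adjusted p of 0.0912, 0.502 and 0.656. Dcn in the lower group was 10.0 CPM in A and 3.25 CPM in B, and its call was also lost without the deepest 5% of cells (-0.81, adjusted p = 0.0830). When the split was made only among glial cells with no UMI of the 25 mitosis genes, an alternative added after seeing the data, Bgn (4.11), Mgp (3.40), Lum (5.21), Sparc (0.70), Postn (0.47), Tnc (-0.98) and Spp1 (-1.03) passed in the same directions as log2 changes, and Fbln1 did not (-0.47, adjusted p = 0.282).

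**Figure D5:**
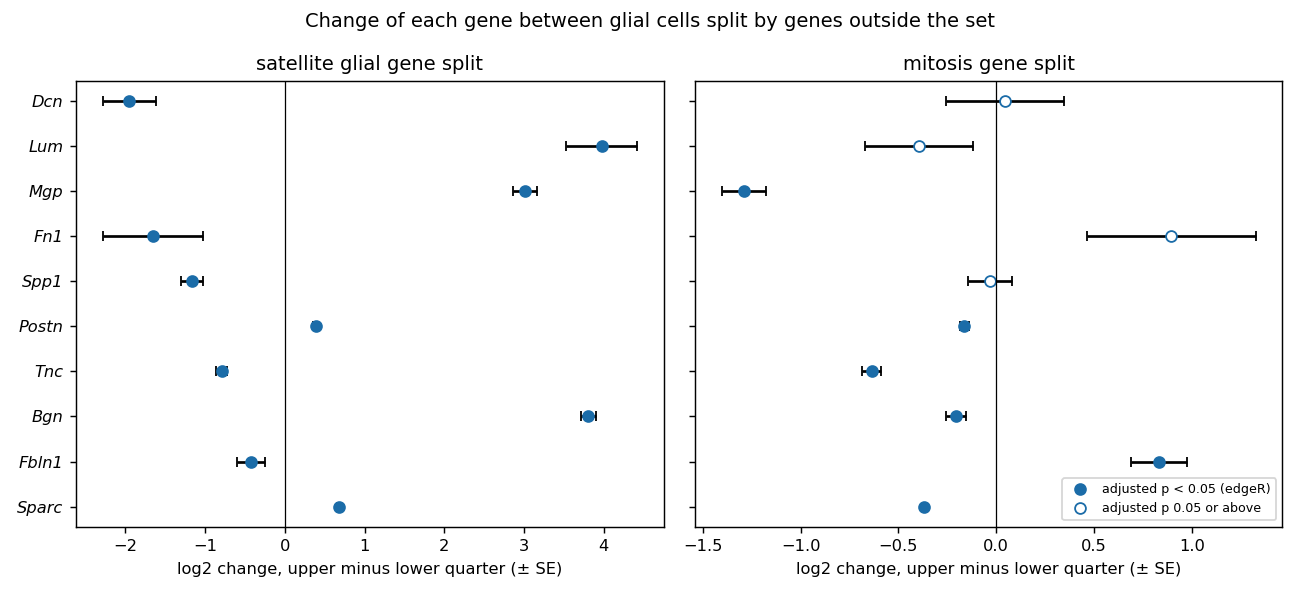
Log2 change of each gene between the upper and lower group of glial cells, for the split by 7 satellite glial genes (left) and by 25 mitosis genes (right). Bars are the SE of the edgeR fit and not the spread between the 2 libraries. Filled points had an adjusted p under 0.05 in edgeR. Bgn, Lum and Mgp changed by 3.80, 3.97 and 3.02 in the first split, and Fbln1 (0.83) rose in the second, where Mgp (-1.29) and Tnc (-0.64) fell.

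The second split used the 25 genes of mitosis. Its lower group (2011 cells in A and 2220 in B) held every thinned glial cell without a UMI of the list, and its upper group held 1111 and 1249 cells. The list was also high in glial cluster 1, led by histone genes (9095 and 9173 CPM). It stood at 11298 and 11682 CPM in cluster 3 and at 239 and 249 CPM in cluster 0. The upper group is therefore not read as cells in mitosis alone. Median depth differed, with 4132 and 3872 UMIs per cell in the lower and 7636 and 7131 in the upper group, and so did the 7 satellite glial genes (9033 and 8536 CPM in the lower, 5598 and 5587 in the upper group) and the neuron markers (487 and 395 CPM, 304 and 264 CPM). Their part in the result was not tested. All 10 genes were tested and 6 passed in edgeR among 12201 genes, 1 higher, where 30.4% of genes were higher, and 5 lower, where 29% were lower.

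Mgp fell from 26.4 and 31.3 CPM to 8.59 and 14.4 CPM (-1.29 ± 0.11, adjusted p = 4.99e-29), and Tnc from 128 and 132 CPM to 87.1 and 75.6 CPM (-0.64 ± 0.05, adjusted p = 9.35e-38). Sparc fell from 4285 and 4186 CPM to 3205 and 3198 CPM (-0.37 ± 0.01, adjusted p = 3.68e-46 by DESeq2), and Postn from 1185 and 1144 CPM to 1036 and 992 CPM (-0.16 ± 0.02, adjusted p = 1.80e-10). Fbln1 was the gene that rose, from 8.70 and 9.87 CPM to 16.4 and 15.9 CPM (0.83 ± 0.14, adjusted p = 1.98e-08 by edgeR). By DESeq2 its adjusted p was 0.0448, just under the limit. The change of Bgn was small (-0.21 ± 0.05, adjusted p = 0.000119) and was not called by DESeq2 (adjusted p = 0.269). Dcn (0.05), Lum (-0.39), Fn1 (0.89, adjusted p = 0.0637) and Spp1 (-0.03) did not pass, and Fn1 passed without the deepest 5% of cells (1.71, adjusted p = 0.00373).

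Other non-collagen matrix genes were read from lists chosen with earlier results of these data known. Of 9 further small leucine-rich proteoglycans, 4 reached 20 CPM in a class in both libraries and all 4 were highest in fibroblasts (12% of all genes were): Aspn (asporin) at 70.5 CPM ± 11.7 (SD, n = 2), Epyc (epiphycan) at 68.7 ± 17.1, Ogn (osteoglycin) at 37.3 ± 7.32 and Prelp at 26.3 ± 3.09. Only Ogn of these was near its fibroblast level in glia (26.5 ± 2.31). Aspn, Epyc and Prelp passed the floor only through fibroblasts, so their highest class was fixed by it. The same holds for any gene that passed in a single class. Counts of highest classes in these lists, here and below, are therefore given only for scale. The 12 of 17 fibulin and elastic fibre genes at that level were divided, 8 highest in fibroblasts and 4 in glia (12% and 31.7% of all genes). Fbln5 stood at 381 ± 10.2 CPM in glia and 52.8 ± 3.96 in fibroblasts, Mfap5 at 0.368 ± 0.0362 and 338 ± 109, Fbn1 (fibrillin 1) at 36.0 ± 1.5 and 284 ± 4.80, and Fbln2 at 231 ± 0.239 and 220 ± 0.205.

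Among 38 other matricellular and adhesive genes, 21 reached the level, 13 highest in fibroblasts and 5 in glia, beside the same 12% and 31.7% of all genes. Tgfbi was at 1460.4 ± 95.4 CPM in fibroblasts and 55.0 ± 0.504 in glia, and Sparcl1, a relative of Sparc, at 594 ± 1.85 and 314 ± 2.85. Matn2 (matrilin 2) was highest in glia (584 ± 1.92) and Fstl1 in neurons (777 ± 87.7). Of 15 large proteoglycan genes 7 reached it, with Srgn (serglycin) in macrophages (417 ± 38.0), Spock2 in neurons (255 ± 15.1), Hspg2 (perlecan) in glia (207 ± 0.0447) and Vcan (versican) in fibroblasts (212 ± 11.8). The median log2 ratio of fibroblasts to glia was 5.93 for the 9 genes of the set above the floor, 2.38 for the small leucine-rich proteoglycans, 1.16 for the matricellular and adhesive genes, 0.40 for the fibulin and elastic fibre genes, -0.07 for the large proteoglycans and -0.23 for all genes. The value of the set follows from how its genes were chosen, and each list median covers only genes past the floor, so no ranking is read.

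Over 8 cell groups (the 5 glial clusters, fibroblasts, neurons and macrophages), the genes whose log2 levels were most like each of the 10 were found by Pearson's r, as a description over groups that share libraries. A gene high in a single group gets a high r with any other such gene from that group alone. The values are therefore not read as a link between genes. Mfap5 was nearest to Dcn (r = 0.996), the transcription factor gene Twist1 to Lum (0.998), Plxdc1 to Mgp (0.991), and Adam33 to Fn1 (0.999). Twist1 was also in the list of fibroblast markers used to name that class. Ifi204 (0.997) and the growth factor gene Igf1 (0.993) were nearest to Spp1. For the glial genes they were Adgrg6, a receptor needed for myelination, for Postn (0.998), Trip6 for Sparc (0.994) and Pxdn for Tnc (0.985). Bgn (Vstm4, 0.966) and Fbln1 (Nudcd2, 0.969) had the weakest nearest genes.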

How the data were processed

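The authors deposited, for each of the 2 libraries, a sparse matrix of UMI counts per gene and barcode, as filtered by their processing: Cell Ranger (3.0.2 per the submitters' processing notes, 3.1.0 in the matrix header) against mm10, with Seurat 3 named for their own analysis. These counts are not normalized. Members and lists were chosen with earlier results of these data known.

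Barcodes needed 200 genes or more and no more than 10% mitochondrial UMIs. Seurat 5.3.0 clustered these cells (2000 variable genes, 20 dimensions, resolution 0.18). The 10 genes and the listed non-collagen matrix, receptor and processing genes were held out, and collagen genes were not. This took out 34 of the variable genes for all cells, 42 for glia and 64 for fibroblasts (at resolution 0.5). Clusters were named from marker lists. Counts were summed per library and class and given as CPM (per 1000000 UMIs), with SD over 2 libraries. For shares of cells, each cell was thinned to 2000 UMIs, which left out 229 of 10730 cells. The exact binomial interval is at 95%, and a share of 0 allows 3 counts of the total. The libraries differed by more than sampling noise (chi-square per degree of freedom 1.55 to 2.42 by class), so they were not repeat deposits of 1 library.

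Glial splits were tested in edgeR 4.0.16 (TMM, filterByExpr, library block) on R 4.3.3, with DESeq2 1.42.0 as the alternative. The edgeR fit gave all genes 1 common spread, and its SEs and p-values lie close to counting error. It called more genes than DESeq2. Genes of a split list were left out of its table. The block is given by the design, since both groups of cells come from the same library. On simulated counts the satellite split recovered 40.8%, 78% and 98.0% of genes changed 1.5, 2 and 4-fold over 11697 genes, and the mitosis split 62.9%, 86% and 97.9% over 12071 genes. The simulated spread was a fixed value not taken from the data, so these shares are not read as the power of the real test. Genes named beside the 10 were up to 4 per list with the highest CPM at 20 CPM or more, and the nearest genes by Pearson's r of log2(CPM + 10). The genes given as leading a cluster had the highest folds over the other cells. Figures were drawn with matplotlib 3.10.9. No doublet caller was run. Promoters came from RefSeq (GRCm38.p6) and gene positions from GENCODE, on the same assembly as mm10.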

Additional observations from a re-analysis of the deposited data

How the results depend on the processing

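The count of genes at least 4-fold higher in fibroblasts than in glia (6) was 6 at each other mitochondrial limit, resolution and gene choice, and 6 or 5 when the fold was 2 or 8, and the count highest in fibroblasts stayed at 7. Leaving out either library gave 6 to 6 and 7 to 7. A mitochondrial limit of 5% moved traces in glia by over 1.5 times, to 11.4 CPM for Dcn, 33.9 for Mgp, 38.6 for Spp1 and 4.23 for Fn1, and lowered Bgn there to 59.1 CPM. That limit removed most glia, leaving glial clusters of 645, 425 and 281 cells of the 9447 glial cells, but kept 353 fibroblasts beside 389. In the splits, DESeq2 called 904 genes higher and 879 lower for the satellite genes (2648 and 2638 in edgeR) and 1874 and 1180 for the mitosis genes (3705 and 3537), and the cause was not tested. Among glia without mitosis-gene UMIs, with fewer cells, 1657 genes were lower. Of the 10 genes, 7 to 10 passed in the satellite split and 5 to 7 in the mitosis split under every alternative tested. Without the replicate block, 2610 and 2601 genes (satellite) and 3646 and 3460 (mitosis) passed, and it changed no call of the 10 genes. A narrower satellite split took 14.7% (A) and 16.3% (B) of thinned glia as the lower group and 10.2% and 10.0% as the upper. Fbln1 lost its satellite call in that split (adjusted p = 0.0844), at 1000 UMIs (0.0853) and without Apoe in the list (0.562). Dcn lost it without Apoe (0.0786) and Fn1 at 1000 UMIs (0.111). In the mitosis split, the change of Dcn turned to -0.034 in DESeq2 and -0.24 with a narrower upper group, all uncalled. That upper group held 10.6% (A) and 10.2% (B) of thinned glia, and the lower group was still every cell without a UMI of the list. Leaving out 1 library gave Dcn from -0.20 (without B) to 0.19 (without A) and Spp1 from -0.087 (without A) to 0.0060 (without B), as changes with 10 CPM added to each level and no test, since 1 library holds no replicate to test with. With 2 libraries of 1 condition, 82 macrophages and 389 fibroblasts, levels in macrophages often rest on single cells.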

Other observations

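Genes for receptors of these proteins and for their processing were read in the same cells. Of 15 receptor genes, 12 reached 20 CPM in a class in both libraries. The syndecan Sdc4 (729 CPM ± 28.7, SD, n = 2), the integrin subunits Itgb1 (690 ± 8.87) and Itgb8 (622 ± 5.22) were highest in glia, and Cd44, a receptor for hyaluronan and osteopontin, was highest in neurons (351 ± 1.06), with 119 ± 1.92 in glia. In edgeR, 9 of 14 receptor genes tested were higher and 2 lower in glia with most satellite-gene UMIs, where 22.4% of all genes tested were higher and 22.3% lower, with a median log2 change of 0.52 against 0.0036 over all genes tested. In glia with most mitosis-gene UMIs, 1 was higher and 9 lower, where 30.4% of all genes were higher and 29% lower (median -0.32, against -0.012 over all genes).

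Of 12 genes for collagen folding, proteoglycan synthesis and phosphorylation, 9 reached 20 CPM. Serpinh1, a collagen chaperone, stood at 974 ± 2.71 CPM in fibroblasts and 487 ± 1.82 in glia, and Pcolce, an enhancer of procollagen cleavage, at 287 ± 20.8 and 40.5 ± 0.443. Fam20c, the kinase that phosphorylates secreted proteins such as osteopontin, stood at 133 ± 12.8 CPM in fibroblasts and 134 ± 58.0 in macrophages, the classes with the highest Spp1, and at 19.3 ± 0.738 in glia. B3gat3 was highest in neurons (188 ± 2.67).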
